A study of Danio rerio with 2 samples.

Results

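Collagens are the main structural proteins of the extracellular matrix, and the 56 collagen genes of zebrafish heart RNA-seq are described here across 2 libraries. The members were all genes whose symbol begins with col, a type number, the letter a and a chain number, in upper or lower case, which gave 56 of the 33396 genes listed. The library labelled mutant came from hearts of homozygous smyd4 L544Efs*1 embryos of strain Tu at 72 hpf, a maternal-zygotic frameshift line (MZsmyd4 L544Efs*1) made by genome editing. The control library came from wild-type hearts of strain Tu at the same age, taken from the Tg(cmcl2:GFP) line, which carries a cardiac green fluorescent reporter. According to the methods, the mutant line was crossed to the same reporter line, so both groups carry the reporter. Hearts of many embryos were pooled for each library, and the cardiac fluorescence guided the dissection, so each group is 1 library with no replicate check and no test of genotype. Every direction given rests on the label of the first library, because smyd4 itself was at 2.42 FPKM (fragments per kilobase of transcript, scaled to the library total) in the library labelled mutant and 2.42 FPKM in the control library, a ratio of 1.00 (95% interval 0.760 to 1.32).

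Collagen chains wind around each other in a triple helix, are modified and folded in the endoplasmic reticulum, and are secreted and assembled outside the cell. The fibrillar types form the cables of connective tissue, type 4 forms the sheet-like network of basement membranes, and the FACIT types (fibril-associated collagens with interrupted triple helices) sit on the surface of fibrils. Other types form beaded filaments, anchoring fibrils, short-chain networks, multiplexins that carry heparan or chondroitin sulfate chains, and transmembrane proteins. In the heart, collagens are made by fibroblasts, epicardium and valve cells, and basement membranes line cardiomyocytes and endocardium, whereas types 2, 9, 10 and 11 are best known from cartilage and, in fish, the notochord.

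The libraries held 17960132 reads for the library labelled mutant and 18840114 reads for the control library, as recovered from ratios of the deposited values. MYL7, a cardiac myosin light chain that marks cardiomyocytes, was at 2977 FPKM in the library labelled mutant and 642 FPKM in the control library, whereas the cardiac actin gene actc1a was at 1685 FPKM in the library labelled mutant and 4275 FPKM in the control library. The 14 listed cardiomyocyte markers summed to 7943 FPKM in the library labelled mutant and 6771 FPKM in the control library, where actc1a made up the largest part. By gene, 6 of the 12 compared were higher by more than 1 in log2(FPKM + 1) (against 33.3% of all genes). The 1 lower by more than 1 was actc1a (against 11.6%). Signals of other tissues differed between the libraries as well. The 10 liver markers summed to 7467 FPKM in the library labelled mutant and 32896 FPKM in the control library, the 12 skeletal muscle markers summed to 4984 FPKM in the library labelled mutant and 11927 FPKM in the control library, and the 10 lens markers summed to 93.0 FPKM in the library labelled mutant and 1.09 FPKM in the control library. The part of these tissues in the collagen values was not tested. In such bulk samples, fewer cells of a type and less RNA per cell cannot be told apart.

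In the deposited values, collagen transcripts were less abundant as a whole in the library labelled mutant, and type 1 accounted for nearly all of that gap. The 56 genes summed to 928 FPKM in the library labelled mutant and 1878 FPKM in the control library, a ratio of 0.494. The 3 type 1 genes summed to 491 FPKM in the library labelled mutant and 1434 FPKM in the control library, a ratio of 0.343. Without type 1, the other 53 genes summed to 437 FPKM in the library labelled mutant and 444 FPKM in the control library, a ratio of 0.985. Type 1 thus made up 52.9% of the summed collagen level in the library labelled mutant and 76.4% in the control library, and the single gene col1a1a made up 38.6% of it in the library labelled mutant and 63.4% of it in the control library. The sums are of unscaled values. TMM scaling, described below, divides each ratio of mutant to control by 1.43, so the other 53 genes would be lower as well.

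Counted gene by gene, the collagens were not moved in a single direction. Of the 56 genes, 44 reached 1 FPKM in either library and were compared as log2(FPKM + 1), mutant minus control, a scale that understates the change of low genes. Of these 44, 6 were higher by more than 1 in the library labelled mutant (13.6%, against 33.3% of all 17800 genes compared) and 2 were lower by more than 1 (4.55%, against 11.6% of all genes). The median over the collagens was 0.10, with 23 genes above 0 and 21 below it. All genes compared had a median of 0.49 in the deposited values, so the collagen median was −0.39 relative to all genes, and 17 collagens lay above the median of all genes and 27 below it.

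The counts in each direction depend on how the libraries are scaled. With TMM scaling (trimmed mean of M values), which brought the median of all genes to 0.04, 2 of 43 collagens were higher (4.65%, against 21.2% of all genes) and 10 were lower (23.3%, against 19.3%), with a collagen median of −0.46. Among all genes past the threshold, 74.2% were higher in the deposited values and 52.3% were higher with TMM scaling. Collagen genes are long, and with the trend of the difference on gene length removed 14 of the collagens were higher (against 33.6% of all genes) and 1 was lower (against 10.5%), with a median of −0.18 relative to all genes.

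In the deposited values, collagens of high level were below 0 more often than all genes of that level, and those of lower level about as often. Of the 17 collagens with a mean of at least 10 FPKM over both libraries, 11 were below 0 and their median was −0.24, whereas all genes of that level had a median of 0.72 and 33.4% of them were below 0. Of the 17 collagens between 3 and 10 FPKM, 6 were below 0 (35.3%, against 33.2% of all genes of that level), with a median of 0.33 against 0.51 for all genes. The contrast between these groups depends on the scaling. With TMM scaling COL6A3, col11a1b and COL12A1 (ENSDARG00000019601) of the middle group moved below 0, to −0.20, −0.26 and −0.11. COL10A1 (ENSDARG00000054753), col17a1a and col18a1a of the upper group moved below 0 as well. Of the 10 collagens under 3 FPKM, 40% were below 0, against 38.9% of all genes, and their median was 0.56 against 0.31 for all genes. Among them col8a1a, col23a1a, col24a1 and col19a1 (ENSDARG00000096073) were under 1 FPKM in the control library. These genes passed the filter only through the library labelled mutant and could only lie above 0, so the median of this group is not read as a direction.

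**Figure D1:**
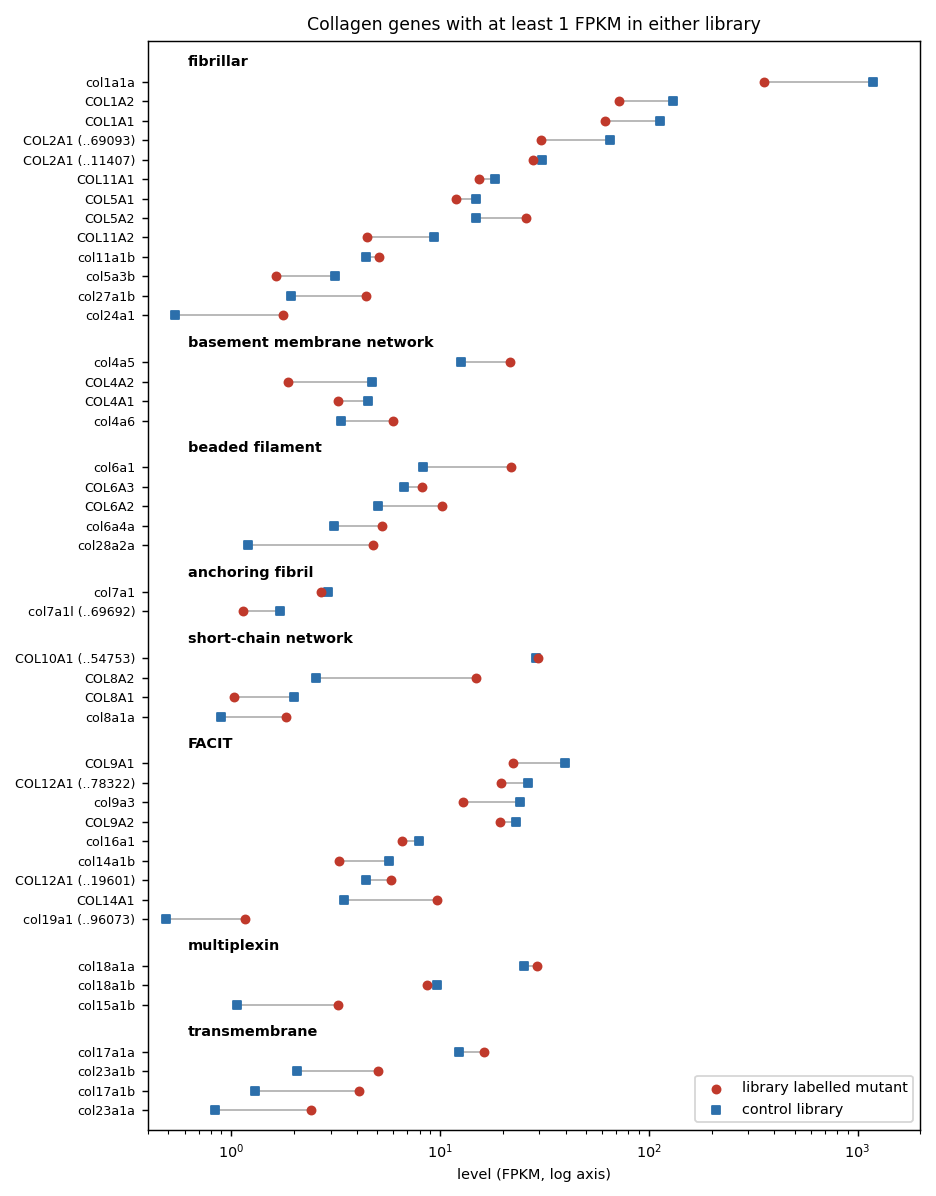
Level of each of the 44 compared collagen genes in FPKM on a log axis, grouped by class and ordered by the control level. Circles stand for the library labelled mutant and squares for the control library, and numbers in brackets are the last digits of the gene identifier where a symbol occurs more than once. The fibrillar gene col1a1a stands far above the rest in both libraries, at 358 FPKM in the library labelled mutant and 1190 FPKM in the control library.

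The fibrillar class held the largest negative difference and both of the genes that were lower by more than 1. Of its 13 compared genes, 0 were higher (against 33.3% of all genes) and 2 were lower (against 11.6%). Of the 13, 9 were below 0, and the median was −0.30, or −0.79 relative to all genes. With TMM scaling 6 of the 13 were lower, against 19.3% of all genes: all 3 type 1 genes, COL2A1 (ENSDARG00000069093), col5a3b and COL11A2. Fibrillar chains held 67.0% of the summed collagen level in the library labelled mutant and 85.1% in the control library.

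Type 1 is the chief fibril of skin, bone, tendon and connective tissue. The gene col1a1a (ENSDARG00000012405), which encodes an alpha 1 chain, was at 358 FPKM in the library labelled mutant and 1190 FPKM in the control library, a ratio of 0.301 (0.296 to 0.305; intervals on read ratios are exact, at the 95% level, and cover counting error only). It ranked first among the collagens of both libraries. Its difference of −1.73 was the lowest of all members, and it was −2.25 with TMM scaling and −0.76 with the trend on expression level removed, where it no longer passed the threshold.

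The other type 1 chains had smaller differences in the same direction. COL1A1 (ENSDARG00000035809), another alpha 1 type gene, was at 61.5 FPKM in the library labelled mutant and 113 FPKM in the control library, a difference of −0.87. COL1A2 (ENSDARG00000020007), the alpha 2 chain that assembles with alpha 1 chains, was at 72.0 FPKM in the library labelled mutant and 130 FPKM in the control library, a difference of −0.85. The level of COL1A1 per COL1A2 was therefore nearly the same, 0.854 in the library labelled mutant and 0.870 in the control library, whereas the level of col1a1a per COL1A2 was 4.97 in the library labelled mutant and 9.13 in the control library. Neither COL1A1 nor COL1A2 passed the threshold in the deposited values, and both did with TMM scaling, at −1.38 and −1.36.

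Cells that make much type 1 collagen left a mixed picture. The 17 listed markers of fibroblasts and epicardium summed to 1163 FPKM in the library labelled mutant and 284 FPKM in the control library. Of the 16 compared, 8 were higher (against 33.3% of all genes), POSTN, PRRX1 and DCN among them, and 0 were lower (against 11.6%). The epicardial genes TCF21 (7.91 FPKM in the library labelled mutant and 10.3 FPKM in the control library) and TBX18 (6.83 FPKM in the library labelled mutant and 8.44 FPKM in the control library) did not pass the threshold. The 11 listed bone markers summed to 1687 FPKM in the library labelled mutant and 1601 FPKM in the control library, nearly all of it SPARC. The osteocalcin gene bglap was listed at 0 in both, whereas the osteoblast gene IFITM5 was at 22.6 FPKM in the library labelled mutant and 25.8 FPKM in the control library and PHEX was at 24.96 FPKM in the library labelled mutant and 7.15 FPKM in the control library. The 9 listed fin fold markers summed to 852 FPKM in the library labelled mutant and 940 FPKM in the control library, and the 10 listed outflow smooth muscle markers to 244 FPKM in the library labelled mutant and 262 FPKM in the control library. Of these 4 lists, the fin fold and outflow lists had a lower sum in the library labelled mutant, and the fibroblast and bone lists had a higher one. By gene, the fin fold list had 2 higher and 0 lower of 7 compared, and the outflow list had 2 higher and 2 lower of 6. The part of these tissues in the type 1 values was not tested.

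Type 5 collagen starts and limits the growth of type 1 fibrils, and its chains did not move together. COL5A1 was at 11.97 FPKM in the library labelled mutant and 14.9 FPKM in the control library, a difference of −0.30 that was above 0 with the length trend removed. COL5A2 was at 25.9 FPKM in the library labelled mutant and 14.9 FPKM in the control library, a difference of 0.76 and a ratio of 1.74 (1.63 to 1.86). COL5A1 per COL5A2 was accordingly 0.462 in the library labelled mutant and 1.01 in the control library. The minor chain gene col5a3b was at 1.64 FPKM in the library labelled mutant and 3.15 FPKM in the control library, and col5a2b and col5a3a stayed under 1 FPKM in both.

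Cartilage and notochord types, which cross the structural classes, were mostly below the median of all genes. The group took types 2, 9, 10, 11 and 27 and the gene col8a1a. Of these 13 genes, 11 were compared, 0 were higher (against 33.3% of all genes) and 1 was lower (against 11.6%). The median was −0.23, or −0.73 relative to all genes, with 9 of the 11 below the median of all genes. The 2 above it were col27a1b, at 4.45 FPKM in the library labelled mutant and 1.95 FPKM in the control library (difference 0.89), and col8a1a (0.58). The 33 other compared collagens had 6 higher and 1 lower, with a median of 0.33 (−0.16 with TMM scaling), or −0.17 relative to all genes. No test of the difference between these groups of genes was made, and with TMM scaling the counts were 0 higher and 4 lower of 11 for the cartilage and notochord types and 2 higher and 6 lower of 32 for the others. Of all genes, 21.2% were higher and 19.3% lower with that scaling.

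Type 2 is the major fibril of cartilage and of the notochord sheath. The COL2A1 gene ENSDARG00000069093 was at 30.5 FPKM in the library labelled mutant and 65.0 FPKM in the control library, a difference of −1.06 and a ratio of 0.470 (0.450 to 0.490). With the length trend removed its difference was −0.68, short of the threshold. The second gene of that symbol, ENSDARG00000011407, was at 28.05 FPKM in the library labelled mutant and 31.0 FPKM in the control library, a difference of −0.14. The first gene made up 52.1% of the level of the pair in the library labelled mutant and 67.7% in the control library.

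The partners of type 2 fibrils showed a similar spread of sizes. Type 9, a FACIT on the surface of type 2 fibrils, summed to 55.2 FPKM in the library labelled mutant and 87.4 FPKM in the control library. Within it, COL9A1 was at 22.4 FPKM in the library labelled mutant and 39.8 FPKM in the control library (difference −0.80), and col9a3 was at 12.8 FPKM in the library labelled mutant and 24.3 FPKM in the control library (−0.87). COL9A2 was closer between libraries, at 19.5 FPKM in the library labelled mutant and 23.1 FPKM in the control library (−0.24), and none of the 3 passed the threshold in the deposited values.

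Type 11, which forms the core of type 2 fibrils, also held unequal chains. COL11A2 was at 4.46 FPKM in the library labelled mutant and 9.35 FPKM in the control library, a difference of −0.92. COL11A1 was at 15.5 FPKM in the library labelled mutant and 18.3 FPKM in the control library, a difference of −0.23 that turned above 0 with the length trend removed. The copy col11a1b was at 5.12 FPKM in the library labelled mutant and 4.45 FPKM in the control library, a difference of 0.17 that was below 0 under all 3 scaling alternatives (TMM, median-of-ratios and upper-quartile) and with the length trend removed. COL10A1 (ENSDARG00000054753), known from hypertrophic cartilage in mammals, was at 29.6 FPKM in the library labelled mutant and 28.8 FPKM in the control library, a difference of 0.04 whose sign changed under all of those settings and with the expression trend removed.

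Markers of the tissues known for these types did not move as a block. Of 14 compared cartilage markers, 4 were higher (against 33.3% of all genes) and 4 lower (against 11.6%). All 16 listed summed to 394 FPKM in the library labelled mutant and 306 FPKM in the control library. The direction of that sum rested on the link protein gene hapln1a, at 208 FPKM in the library labelled mutant and 24.9 FPKM in the control library. Without hapln1a the sum was lower in the library labelled mutant. The secreted cartilage protein MIA was at 19.9 FPKM in the library labelled mutant and 130 FPKM in the control library. Of 10 compared notochord markers, 5 were higher and 1 lower, and all 13 listed summed to 594 FPKM in the library labelled mutant and 109 FPKM in the control library, of which emilin3a made up 328 FPKM in the library labelled mutant and 8.46 FPKM in the control library. The defining notochord gene tbxta was listed at 0 in both libraries, noto was listed at 0 in the control library and cmn at 0 in the library labelled mutant. The part of either tissue in the collagen values was not tested.

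**Figure D2:**
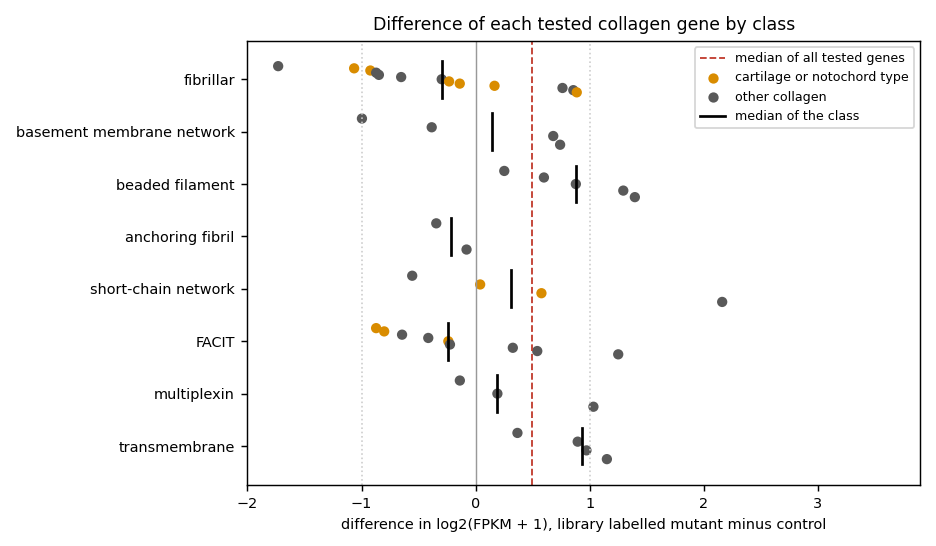
Difference in log2(FPKM + 1), library labelled mutant minus control, of each of the 44 compared collagen genes by structural class, with 1 point per gene, cartilage and notochord types in orange and the class median as a black bar. The dashed line is the median of all compared genes (0.49), the dotted lines are the threshold of 1 in each direction, and the fibrillar and FACIT medians (−0.30 and −0.24) lie left of 0 while the beaded filament and transmembrane medians (0.88 and 0.93) lie right of the dashed line.

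The basement membrane network of type 4 split by gene pair. Its 6 genes are annotated on GRCz12tu in 3 adjacent pairs, each with 0 protein-coding genes between them. Of the 6, 4 were compared, with 0 higher and 0 lower, against 33.3% and 11.6% of all genes. The median was 0.15 (−0.27 with TMM scaling), or −0.34 relative to all genes, and turned to 0.11 relative to all genes with the length trend removed. Summed type 4 was at 33.0 FPKM in the library labelled mutant and 25.9 FPKM in the control library.

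The pair of genes for the classical network had lower values in the library labelled mutant. COL4A1 was at 3.25 FPKM in the library labelled mutant and 4.54 FPKM in the control library, a difference of −0.38 that was above 0 with the length trend removed. COL4A2, whose chain assembles with that of COL4A1, was at 1.88 FPKM in the library labelled mutant and 4.75 FPKM in the control library, a ratio of 0.396 (0.326 to 0.479), and its difference of −0.996 lay just short of the threshold. COL4A1 per COL4A2 was 1.72 in the library labelled mutant and 0.956 in the control library.

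The pair col4a5 and col4a6 went the other way, with both genes by about the same factor. The gene col4a5 was at 21.7 FPKM in the library labelled mutant and 12.6 FPKM in the control library, a ratio of 1.72 (1.61 to 1.84), and col4a6 was at 5.99 FPKM in the library labelled mutant and 3.36 FPKM in the control library, a ratio of 1.78 (1.60 to 1.99). The level of col4a5 per col4a6 was 3.63 in the library labelled mutant and 3.75 in the control library. Their differences of 0.74 and 0.68 did not pass the threshold in the deposited values, passed it with the length trend removed (1.14 and 1.24), and kept their sign under every alternative run. Of the last pair, best known from kidney in mammals, COL4A4 was at 0.129 FPKM in the library labelled mutant and 0.582 FPKM in the control library, and col4a3 was under 0.1 FPKM in both.

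In the beaded filament class every compared gene was above 0 in the deposited values, as was every gene of the transmembrane class. Of all 17800 genes compared, 11539 were above 0. COL6A3 was below 0 under each of the 3 scaling alternatives. Of the 5 compared beaded filament genes, 2 were higher (against 33.3% of all genes) and 0 lower (against 11.6%). The class median was 0.88, which is 0.39 above that of all genes. Type 6, which links cells and basement membranes to the fibrils around them, summed to 45.5 FPKM in the library labelled mutant and 23.2 FPKM in the control library, a ratio of 1.96.

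Within type 6 the chains were again unequal. The gene col6a1 was at 21.9 FPKM in the library labelled mutant and 8.32 FPKM in the control library, a difference of 1.30 and a ratio of 2.63 (2.39 to 2.90). Its difference was 0.82 with TMM scaling, short of the threshold. COL6A2, its neighbour with 1 gene between them, was at 10.2 FPKM in the library labelled mutant and 5.09 FPKM in the control library, a difference of 0.88. COL6A3, the long chain of the same filament, was at 8.17 FPKM in the library labelled mutant and 6.70 FPKM in the control library, a difference of 0.25 that was below 0 under the 3 scaling alternatives. The gene col6a4a was at 5.26 FPKM in the library labelled mutant and 3.13 FPKM in the control library, and col6a1 per COL6A2 was 2.15 in the library labelled mutant and 1.64 in the control library.

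The type 28 gene col28a2a had the second largest positive difference among the members. It was at 4.81 FPKM in the library labelled mutant and 1.21 FPKM in the control library, from 300 reads in the library labelled mutant and 79 reads in the control library, a difference of 1.40 that was 1.04 with TMM scaling. Its 3 relatives col28a1a, col28a1b and col28a2b were listed at 0 in the control library, where 0 reads allow up to 3, and had 13, 1 and 1 reads in the library labelled mutant.

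Short-chain collagens held the largest positive difference. COL8A2, a type 8 chain known from the corneal endothelium and blood vessels in mammals, was at 14.9 FPKM in the library labelled mutant and 2.54 FPKM in the control library, a difference of 2.16 and a ratio of 5.84 (4.89 to 7.02). It was the only collagen past a threshold of 2, and its difference was 1.73 with TMM scaling. Its partner chain gene COL8A1 was at 1.04 FPKM in the library labelled mutant and 1.996 FPKM in the control library, so that COL8A2 per COL8A1 was 14.3 in the library labelled mutant and 1.28 in the control library. The copy col8a1a, a notochord type in zebrafish, was at 1.83 FPKM in the library labelled mutant and 0.894 FPKM in the control library.

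The sum of the lens markers was higher in the same library as COL8A2. The 10 listed lens markers summed to 93.0 FPKM in the library labelled mutant and 1.09 FPKM in the control library, where 5 were listed at 0. Among them, CRYBB1 was at 18.9 FPKM in the library labelled mutant and 0.626 FPKM in the control library. The 6 that were compared passed the filter only through the library labelled mutant, so their direction was fixed by the filter and is not counted. The cornea-enriched proteoglycan gene KERA was at 16.8 FPKM in the library labelled mutant and 1.39 FPKM in the control library. It comes from the list of fibril-associated genes, where it was named for its large difference, so its direction is not counted either. Their part in the COL8A2 value was not tested.

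FACIT collagens outside type 9 included a pair of copies that went opposite ways. COL14A1 (ENSDARG00000005762), which binds the surface of type 1 fibrils, was at 9.66 FPKM in the library labelled mutant and 3.48 FPKM in the control library, a difference of 1.25 and a ratio of 2.78 (2.38 to 3.25). Its difference was 0.81 with TMM scaling, short of the threshold. Its copy col14a1b was at 3.30 FPKM in the library labelled mutant and 5.72 FPKM in the control library, a difference of −0.64. The copy col14a1b made up 25.5% of the level of the pair in the library labelled mutant and 62.2% in the control library, and the gap of 1.90 between the copies was the widest of the 9 pairs with both copies compared.

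The whole FACIT class had 1 gene higher (against 33.3% of all genes) and 0 lower (against 11.6%) of 9 compared. Its median was −0.24, or −0.73 relative to all genes. COL12A1 (ENSDARG00000078322), a FACIT of type 1 fibrils, was at 19.6 FPKM in the library labelled mutant and 26.5 FPKM in the control library, whereas the other COL12A1 gene (ENSDARG00000019601) was at 5.82 FPKM in the library labelled mutant and 4.44 FPKM in the control library, a difference of 0.33 that was below 0 with TMM scaling. With TMM scaling 0 FACIT genes were higher (against 21.2% of all genes) and 3 of 8 were lower (against 19.3%), namely COL9A1, col9a3 and col14a1b.

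Transmembrane collagens were above 0 in all 4 genes in the deposited values, as were 11539 of all 17800 genes compared. The gene col17a1a was below 0 with TMM and upper-quartile scaling. Among the 4, col23a1a was at 0.837 FPKM in the control library. It passed the filter only through the library labelled mutant and could only lie above 0. The class median of 0.93, or 0.44 relative to all genes, includes it. The gene col17a1b, a copy of the hemidesmosome collagen that fixes basal epidermal cells to the basement membrane, was at 4.11 FPKM in the library labelled mutant and 1.30 FPKM in the control library, a difference of 1.15 and a ratio of 3.16 (2.46 to 4.09). Its difference was 0.80 with TMM scaling, short of the threshold. Its copy col17a1a was at 16.3 FPKM in the library labelled mutant and 12.4 FPKM in the control library, a difference of 0.37. The type 23 copies differed by nearly the same amount, col23a1b by 0.97 and col23a1a by 0.90, and the gap between them, 0.08, was the smallest of the 9 pairs. Because the filter fixed the direction of col23a1a, no shared direction is read from this pair.

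Epidermal markers stood beside these values. The 12 genes listed for basal epidermis summed to 20132 FPKM in the library labelled mutant and 13497 FPKM in the control library. The direction of that sum rested on the keratin gene krt4 and is not read as one of basal cells. Of 10 compared, 3 were higher (against 33.3% of all genes) and 1 lower (against 11.6%). Without the keratin gene krt4 the other 11 summed to 3581 FPKM in the library labelled mutant and 5435 FPKM in the control library, and the basal keratin gene krt5 was at 2166 FPKM in the library labelled mutant and 4915 FPKM in the control library. The basal cell regulator TP63 was at 53.4 FPKM in the library labelled mutant and 47.7 FPKM in the control library, and the hemidesmosome integrin ITGB4 was at 5.07 FPKM in the library labelled mutant and 2.94 FPKM in the control library. Their part in the type 17 values was not tested. The anchoring fibril gene col7a1, whose product ties the epidermal basement membrane to the dermis, was at 2.70 FPKM in the library labelled mutant and 2.91 FPKM in the control library. This gene was chosen after its values were seen.

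Multiplexins, which lie in basement membrane zones and can release endostatin-like fragments, included an abundant gene with little difference. The gene col18a1a was at 29.1 FPKM in the library labelled mutant and 25.4 FPKM in the control library, a difference of 0.19 that was below 0 under all 3 scaling alternatives and with the expression trend removed. Its copy col18a1b was at 8.71 FPKM in the library labelled mutant and 9.68 FPKM in the control library. The gene col15a1b was at 3.24 FPKM in the library labelled mutant and 1.07 FPKM in the control library, and its difference of 1.03 passed the threshold by the least on the positive side, whereas col23a1b at 0.97 came nearest without passing it. The difference of col15a1b was 0.70 with TMM scaling, short of the threshold. On the negative side COL2A1 (ENSDARG00000069093) at −1.06 passed by the least and COL4A2 came nearest without passing.

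**Figure D3:**
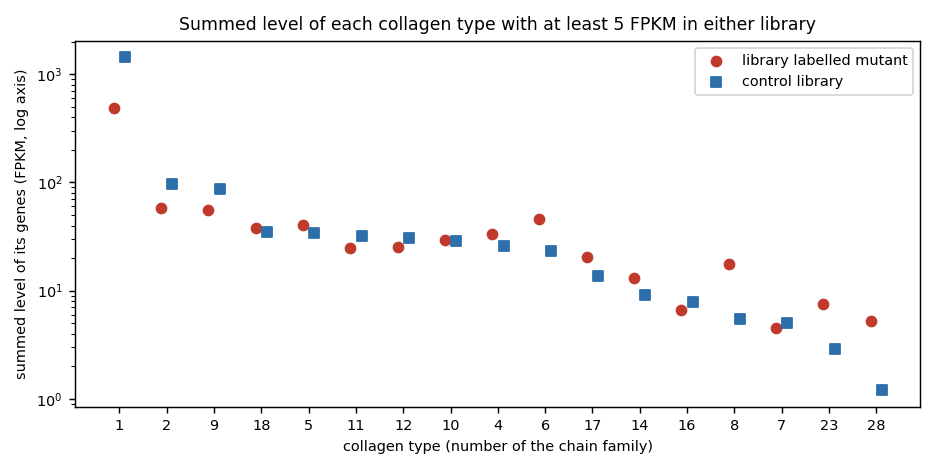
Summed FPKM, on a log axis, of the genes of each collagen type that reached 5 FPKM in either library, ordered by the control level, with circles for the library labelled mutant and squares for the control library. Types 1, 2 and 9 were lower in the library labelled mutant (491 FPKM for type 1 there, against 1434 FPKM in the control library), and types 6 and 8 were higher (45.5 FPKM for type 6 and 17.7 FPKM for type 8 there, against 23.2 FPKM and 5.44 FPKM in the control library).

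The genes that fold, process, bind and degrade collagen had a different balance from the collagens themselves. Over 8 lists of such genes, 118 of 147 were compared, of which 56 were higher (47.5%, against 33.3% of all genes) and 6 lower (5.08%, against 11.6%). Some of those higher were under 1 FPKM in the control library, among them PCOLCE2 (ENSDARG00000008450), PRELP, mmp30 and ITGB1 (ENSDARG00000022689). Such genes passed the filter only through the library labelled mutant, so their direction was fixed by it. The same filter applied to all genes. The pooled median of the 118 genes was 0.94, which is 0.45 above that of all genes. With TMM scaling 42 of 117 were higher (35.9%, against 21.2%) and 11 were lower (9.40%, against 19.3%). The lists share no gene with the collagens, and no test of the difference between them was made.

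Chain folding and modification had 14 genes higher (against 33.3% of all genes) and 0 lower (against 11.6%) of 24 compared, and the list median was 1.18. FKBP9, a prolyl isomerase of the endoplasmic reticulum, was at 201 FPKM in the library labelled mutant and 17.5 FPKM in the control library, a difference of 3.45. FKBP10 (ENSDARG00000045129), an isomerase that acts on procollagen, was at 85.5 FPKM in the library labelled mutant and 7.47 FPKM in the control library. P4HA1 (ENSDARG00000071082), the catalytic subunit of prolyl 4-hydroxylase, was at 43.8 FPKM in the library labelled mutant and 4.05 FPKM in the control library. These 3 genes were named for having the largest differences of the list. Their values were higher in the library labelled mutant, where those of all 3 type 1 chains were lower, and a link between them was not tested.

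Of 16 secretory export genes, 3 were higher and 1 lower, and the median was 0.19 (−0.24 with TMM scaling). Of all genes, 33.3% were higher and 11.6% lower, which stands beside each count of this paragraph. SEC13, a coat protein of export vesicles, was at 257 FPKM in the library labelled mutant and 749 FPKM in the control library. The coat gene sec23a was at 31.2 FPKM in the library labelled mutant and 10.3 FPKM in the control library, and the vesicle GTPase gene sar1b was at 32.9 FPKM in the library labelled mutant and 13.8 FPKM in the control library. Of 6 propeptide processing genes, 3 were higher and 1 lower, and pcolcea, an enhancer of procollagen C-proteinase, was at 106 FPKM in the library labelled mutant and 14.7 FPKM in the control library. Of 9 cross-linking genes, 3 were higher and 1 lower. The lysyl oxidase genes LOX, at 10.1 FPKM in the library labelled mutant and 2.75 FPKM in the control library, and LOXL2 (ENSDARG00000044074), at 31.9 FPKM in the library labelled mutant and 10.3 FPKM in the control library, were among those higher, and LOXL3 was at 10.98 FPKM in the library labelled mutant and 8.98 FPKM in the control library, with its sign changed under TMM and upper-quartile scaling.

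Proteins that bind fibrils were mostly higher, 15 higher and 1 lower of 22 compared (median 1.69), against 33.3% and 11.6% of all genes. POSTN (ENSDARG00000104267), a matricellular protein that binds type 1 collagen, was at 389 FPKM in the library labelled mutant and 47.1 FPKM in the control library. TGFBI was at 166 FPKM in the library labelled mutant and 24.3 FPKM in the control library. POSTN, LUM and DCN also stand in the fibroblast list given above.

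Of 14 partners of the basement membrane, 3 were higher (against 33.3% of all genes) and 0 lower (against 11.6%). The median was 0.26 (−0.22 with TMM scaling). It is not compared with the type 4 median, which lay between pairs of genes that went opposite ways. NID1 (ENSDARG00000068710), which links laminin to type 4, was at 33.4 FPKM in the library labelled mutant and 14.8 FPKM in the control library, and NID2 was at 41.4 FPKM in the library labelled mutant and 23.3 FPKM in the control library.

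Of 18 degradation genes and inhibitors, 10 were higher and 2 lower (median 1.14), against 33.3% and 11.6% of all genes. MMP2, a gelatinase, was at 161 FPKM in the library labelled mutant and 17.01 FPKM in the control library, and mmp30 was at 19.7 FPKM in the library labelled mutant and 0.969 FPKM in the control library. The direction of mmp30 was fixed by the filter. The gene mmp23bb was at 3.62 FPKM in the library labelled mutant and 24.9 FPKM in the control library, a difference of −2.49. Of 9 collagen receptor genes, 5 were higher and 0 lower, and 4 of these 5 were genes of the symbol ITGB1, the beta chain of the collagen-binding integrins. The 2 with the largest differences were at 54.9 FPKM in the library labelled mutant and 10.3 FPKM in the control library for ENSDARG00000104484 and 21.7 FPKM in the library labelled mutant and 0.959 FPKM in the control library for ENSDARG00000022689. The direction of ENSDARG00000022689 was fixed by the filter. The integrin gene itga2.3 was at 16.8 FPKM in the library labelled mutant and 2.99 FPKM in the control library.

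**Figure D4:**
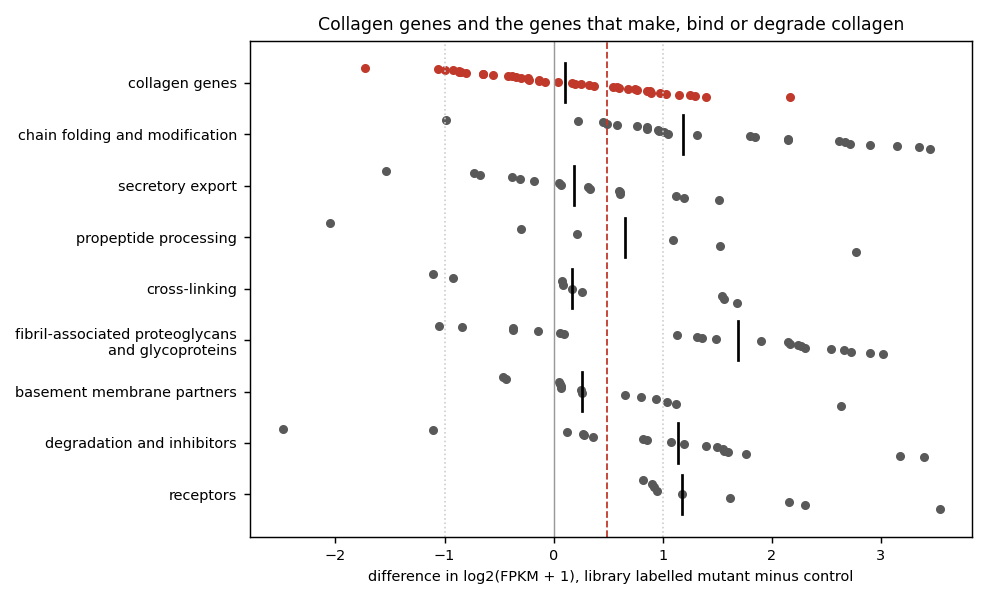
Difference in log2(FPKM + 1), library labelled mutant minus control, of the compared collagen genes (top row, red) and of 8 lists of genes that make, export, process, cross-link, bind or degrade collagen, with 1 point per gene and the median of each list as a black bar. The dashed line is the median of all compared genes (0.49), which the collagen median (0.10) lies below and the medians of folding and modification (1.18) and fibril-associated genes (1.69) lie above.

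Duplicated chains limit how far single copies can be read. Of 16 chains with a pair of copies, 9 had both copies compared, and reads of similar copies may have been divided between them in a way that the values do not show. The remaining 12 members that stayed under 1 FPKM in both libraries reached at most 0.705 FPKM, and all 56 members had reads in the library labelled mutant and 53 in the control library.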

How the data were processed

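RNA-seq values of 1 library labelled mutant and 1 control library were analysed. The authors deposited FPKM values per Ensembl zebrafish gene, and the submitters' processing notes name TopHat2 2.0.9 and Bowtie2 2.0.6. The genome build, annotation, strand setting and counting rule were not given in the sources used here. According to the methods, differential expression was called with DESeq2, but it was not used here because the deposited values are not counts and there is 1 library per group.

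FPKM ratios between the libraries are ratios of whole reads times a ratio of library totals, which gave 17960132 reads for the library labelled mutant and 18840114 for the control library. Reads recovered per gene summed to 90.9% and 91.5% of these totals. For some genes the true number may be a multiple of the recovered one, which makes the printed interval wider than it need be. Differences are log2(FPKM + 1), library labelled mutant minus control, for genes that reached 1 FPKM in one library or in both, and genes past 1 in either direction are counted. Read ratios have exact Clopper-Pearson 95% intervals. PCR duplicates were not marked by molecular identifiers, so intervals cover counting error only.

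Members, classes and lists were chosen with earlier results of these data known. Named collagens are those that reached 20 FPKM, the 5 with the largest difference in each direction, the chains of types 1, 4, 5, 6, 9 and 11, and pairs of copies. For each pathway list they are the 3 genes with the largest absolute difference among those that reached 10 FPKM, together with smyd4. A gene that this rule names is not reported here. Marker genes, other exceptions and the genes nearest the threshold are given as values. Marker lists not described with the collagens gave the following counts: cardiomyocyte 6 higher and 1 lower of 12, endothelium and endocardium 2 higher and 1 lower of 10, swim bladder and gut 1 higher and 1 lower of 4, and neural 1 higher and 4 lower of 7. Of all genes, 33.3% were higher and 11.6% lower. Gene neighbours are from RefSeq GRCz12tu, which held 44 of the collagen symbols.

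Alternatives were TMM (trims of 30% and 5%), upper-quartile and median-of-ratios scaling, dropping the filter, asking for 1 FPKM in each library, adding 0.1 in place of 1, a threshold of 2, and removal of lowess trends (span 0.3) on gene length or on mean level. Scripts were tested on simulated data and used matplotlib 3.10.9, scipy 1.17.1 and numpy 2.4.6, as well as pandas 2.3.3, in Python 3.11.15 and statsmodels 0.14.6 for the lowess trends.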

Additional observations from a re-analysis of the deposited data

How the results depend on the processing

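No paired analysis was possible because each group is 1 library, and no replicate could be left out. Of the 29 collagens followed under every alternative, 22 kept their sign and 7 did not, and none past the threshold changed sign. The count of higher collagens was 6 in the deposited values. It was 2 with TMM, 2 with median-of-ratios and 1 with upper-quartile scaling, 11 with a pseudocount of 0.1, 1 with a threshold of 2, and 14 with the length trend removed. The count of lower collagens, 2 in the deposited values, was 10, 10, 11, 4, 0 and 1 under the same settings. The shares of all genes moved too. With TMM, 21.2% of all genes were higher and 19.3% lower, and without the length trend 33.6% and 10.5%. Under upper-quartile scaling 3084 of 17826 genes were higher and 4118 lower, beside 1 and 11 of 43 collagens. All-gene counts for median-of-ratios scaling, the smaller pseudocount and the threshold of 2 are not given here, so those collagen counts have no background. The collagen median of 0.10 was −0.46 with TMM, −0.46 with median-of-ratios, −0.60 with upper-quartile scaling, −0.11 with at least 1 FPKM in both libraries, 0.34 with the length trend removed and −0.0082 with the expression trend removed. Relative to all genes the collagen median was −0.39, and it was −0.50 with TMM and with median-of-ratios scaling, −0.16 with no filter, −0.56 with at least 1 FPKM in both libraries, −0.18 with the length trend removed and −0.54 with the expression trend removed. The fibrillar median, −0.79 on that scale, was −0.43 with no filter, −0.92 with at least 1 FPKM in both, −0.93 with a pseudocount of 0.1, −0.56 without the length trend and −1.05 without the expression trend. The FACIT median of −0.73 was −0.86, −0.86 and −0.87 under the scalings, −0.36 with no filter, −0.87 with the smaller pseudocount and −1.01 without the expression trend. The cartilage and notochord median of −0.73 was −0.34 with no filter, −0.86 with the smaller pseudocount, −0.56 without the length trend and −1.01 without the expression trend. The basement membrane median of −0.34 was −0.46 with the smaller pseudocount, −0.48 without the expression trend and 0.11 without the length trend. The causes were not tested.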
